A study of Arabidopsis thaliana with 12 samples.

Results

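The wild-type shoot of Arabidopsis thaliana was described from the 3 Col-0 RNA-seq libraries of a series of 12. Col-0 (ecotype Columbia, no altered allele) is the control of that series. The other 9 libraries, 3 for each genotype, came from sob3-6 (a dominant-negative mutation in an AHL gene), SOB3-D (an AHL overexpressor) and the triple loss-of-function line pif4 pif5 pif7 (alleles pif4-101, pil6-1 in PIF5, and pif7-1), all in the Columbia ecotype. AHL genes encode nuclear proteins that bind DNA through an AT-hook, and PIF genes encode transcription factors that bind the light receptor phytochrome. All plants were 14 days old and grew on medium without sucrose at 22 °C. They had 16 h of white fluorescent light, at 35 to 55 µmol per square metre per second, and 8 h of darkness. The part above a cut in the hypocotyl was taken at ZT4, meaning 4 h after the light came on. The libraries belonged to Col-0 by their labels, and each locus was represented by the transcript with the highest mean over the 3 of them, which gave 25089 loci. The labels do not say how many plants went into a library or whether the 3 came from separate cultures, so the spread between them may be technical.

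Light-harvesting proteins, encoded in the nucleus by LHCB genes for photosystem II and LHCA genes for photosystem I, hold the chlorophyll that gathers light. The photosystems and the electron carriers between them then serve to make ATP and NADPH. The Calvin cycle uses these products, and Rubisco is its enzyme that fixes carbon dioxide. Rubisco is built from a large subunit encoded in the chloroplast and a small subunit encoded by nuclear RBCS genes, and Rubisco activase (RCA) keeps it active. Many of these proteins are encoded by families of close copies, so the level of a function and the level of a single gene can differ.

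Replicates 1, 2 and 3 of Col-0 held 16075498, 16041262 and 14488308 mapped reads. Levels were deposited as mapped tags scaled to parts-per-million (ppm), so that 1 ppm stood for 16.1, 16.0 and 14.5 reads in these libraries. A transcript listed at 0 had no read, and an expected level of up to 3 reads, or 0.187 to 0.207 ppm, is compatible with that by counting error alone. The libraries correlated over genes with Pearson's r of 0.997 on log2(ppm + 1), a value over genes and not over independent samples. Their differences exceeded counting error, at 2.16 to 3.57 times the chi-square expected per gene, so each was counted as 1 replicate. Since ppm grows with transcript length, levels of different genes are set side by side as ppm per kb of transcript. Transcripts of the chloroplast and mitochondrial genomes had no length here, so they are given on the ppm scale and lie outside the pool, which is the sum of ppm per kb over 24747 nuclear loci.

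Of the 25089 loci, 18021 had a mean of at least 1 ppm in Col-0, 11771 at least 10 ppm and 2233 were at 0 in all 3 libraries. The pool was concentrated in few genes. The 10 genes with the highest mean ppm per kb held 13.6%, 14.2% and 14.1% of it in replicates 1, 2 and 3, and the first 100 held 35.8%, 36.9% and 36.6%. Their means were 14.0% ± 0.331 and 36.4% ± 0.566 (SD, n = 3), and the first 1000 genes held 63.7% ± 0.330. Counted the other way, 33 genes held 25% of the pool, 352 held 50%, 2280 held 75% and 6565 held 90%. The curves of the 3 libraries lay close together, with replicate 1 slightly the lowest over the first 1000 genes.

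**Figure D1:**
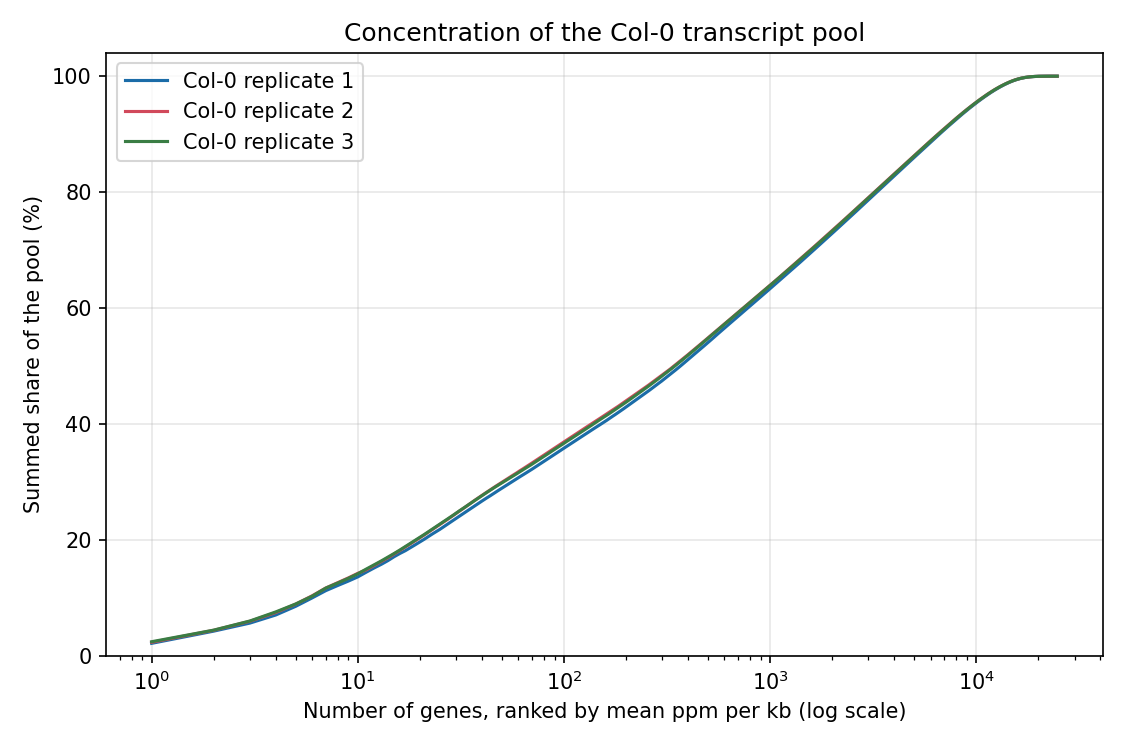
Summed share of the pool (%, vertical axis) held by the most abundant genes, ranked by mean ppm per kb over the 3 Col-0 libraries (horizontal axis, log scale), with 1 line per library. The lines pass 13.6% to 14.2% at 10 genes and 35.8% to 36.9% at 100 genes.

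Photosynthesis came first among the named processes, which were assigned from gene lists and annotation text. Light reactions, with 121 genes, held 22.9%, 24.3% and 24.3% of the pool in replicates 1, 2 and 3 (23.8% ± 0.782, SD, n = 3), and 12 of those genes held 50% of that share. Carbon fixation, with 36 genes, held 8.99%, 8.97% and 8.49% (8.82% ± 0.284), and 3 genes made up 50% of it. Light reactions were lowest in replicate 1 and carbon fixation was lowest in replicate 3. Ribosomal proteins, a class that takes cytosolic and other ribosomes together, were more evenly spread. Its 393 genes held 8.47%, 8.05% and 8.38% (8.30% ± 0.221), and 73 genes were needed for 50% of that. On the ppm scale, which weights genes by length, ribosomal proteins held 5.36%, light reactions 17.7% and carbon fixation 8.35%. In whole shoots, fewer cells of a type and less RNA per cell cannot be told apart.

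The other named processes were each smaller. Photorespiration, which recovers the carbon lost when Rubisco takes up oxygen, held 1.42% ± 0.0458 of the pool with 26 genes. Synthesis of chlorophyll precursors and carotenoids held 0.923% ± 0.0182 with 34 genes, of which 4 made up 50%. Redox, detoxification and metal-binding genes held 2.48% ± 0.0139, lipid genes 1.85% ± 0.0144 and transporters with water channels 1.73% ± 0.00163. Transcription factors, at 1028 genes by annotation text, held 1.39% ± 0.00977, and protein kinases and phosphatases, at 950 genes, held 1.21% ± 0.00463 (SD, n = 3 each). These regulators thus made up many genes at low levels, with medians of 2.70 ppm per kb for transcription factors and 4.21 ppm per kb for kinases and phosphatases. Such medians were not particular to regulators. Cell wall genes had 1.42, redox, detoxification and metal-binding genes 2.78 and other annotated genes 6.14 ppm per kb. Ribosomal proteins had 97.4 and light reactions 234 ppm per kb. Uncharacterised genes held 4.72% ± 0.116, and the 13442 other annotated genes held 30.3% ± 0.200. Some of the latter, such as ALB1, known for chlorophyll synthesis, belong to a named process by function, so the share of a named process can miss genes.

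**Figure D2:**
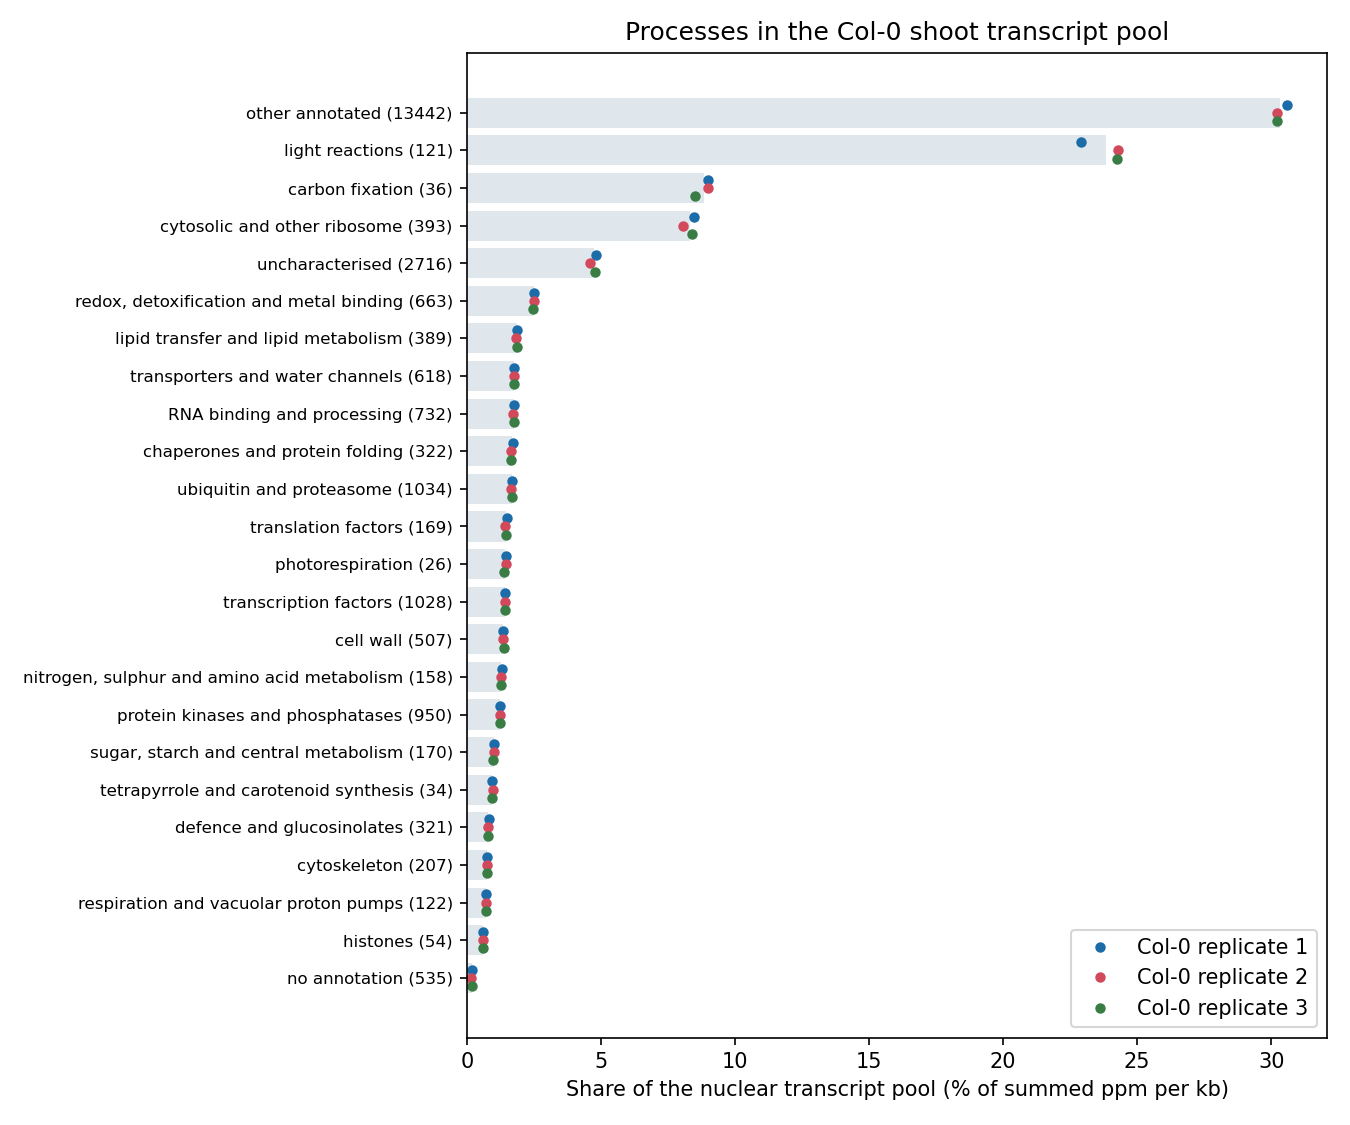
Share of the pool (% of summed ppm per kb, horizontal axis) held by each process, with the number of genes in brackets, and 1 point per Col-0 library with bars for the mean. Light reactions lie at 22.9% to 24.3%, above carbon fixation and ribosomal proteins, which each lie at 8.05% to 8.99%.

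Within the light reactions, the antenna genes together held more of the pool than the nuclear genes of photosystem subunits. Photosystem subunits encoded in the chloroplast lie outside the pool and were not compared. The 14 LHCB genes held 10.9% ± 0.584 of the pool and the 6 LHCA genes 2.48% ± 0.0999. The 12 nuclear subunits of photosystem I held 3.77% ± 0.0706 and the 11 of photosystem II 3.44% ± 0.0639 (SD, n = 3). The photosystem I subunits spanned a narrow range, with PSAG highest at 3319 ppm per kb and PSAE2 lowest at 645 ppm per kb. The photosystem II subunits ran between 5027 ppm per kb for PSBR and 7.88 ppm per kb for PSBP2. Among LHCB genes the range was as wide, with LHCB4.3 lowest at 15.01 ppm per kb, and among LHCA genes LHCA5 was lowest at 151 ppm per kb.

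LHCB1.3, a gene of the major antenna of photosystem II, was the most abundant transcript, at 17971, 19539 and 20522 ppm in replicates 1, 2 and 3 and a mean of 15727 ppm per kb. RBCS1A, the most abundant Rubisco small subunit gene, was next at 18307, 18206 and 17556 ppm, or 14214 ppm per kb. LHCB1.3 was thus lowest in replicate 1, and RBCS1A was lowest in replicate 3. LHCB1.5 had 9981, 11250.4 and 11456 ppm (10426 ppm per kb), and LHCB1.1 had 12542, 13602 and 14219.9 ppm (10239 ppm per kb). LHCB1.2 had 10606, 11458 and 11955 ppm (9272 ppm per kb), and LHCB1.4 had 4292, 5299 and 5408 ppm (3811 ppm per kb). All 5 LHCB1 genes were lowest in replicate 1 and highest in replicate 3. RBCS2B had 9624, 9392 and 8882 ppm (9945 ppm per kb), RBCS3B had 11969.6, 11872 and 11183 ppm (9649 ppm per kb) and RBCS1B had 8737, 8439 and 8128 ppm (4453 ppm per kb). All 4 RBCS genes ran the other way, highest in replicate 1 and lowest in replicate 3. RCA, at 12077, 12729 and 12013 ppm (6174 ppm per kb), was highest in replicate 2.

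The next places were held by antenna and photosystem genes. LHCA1 had 6144, 6601 and 6604 ppm (5457 ppm per kb), LHCA4 had 6430.5, 7032 and 6995 ppm (5266 ppm per kb) and LHCA3 had 4537, 4918 and 4882 ppm (3556 ppm per kb). PSBR, a subunit of photosystem II, had 3886, 4031 and 3907 ppm (5027 ppm per kb). PSBO1 and PSBP1, of its oxygen-evolving complex, had means of 3413 and 3345 ppm per kb. LHCB3, LHCB2.2, LHCB5 and LHCB2.1, further antenna genes of photosystem II, had means of 4519, 4518, 4075 and 3809 ppm per kb. Among these antenna and photosystem genes, too, replicate 1 was the lowest of the 3 libraries. On the ppm scale the chloroplast transcript ATCG00480, at 6659.5, 6210.4 and 6094 ppm, was the only member of the first 20 outside the nucleus. All identifiers of the chloroplast genome together took 2.25%, 1.86% and 1.90% of the summed ppm. ATCG00830 and ATCG01310 had identical values in each library, so a read may count more than once in that sum. The libraries were made from poly(A) RNA, so the level of chloroplast transcripts in the shoot itself may differ.

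Gene AT2G01021, annotated as an uncharacterised protein, stood 11th per kb with 573, 431 and 583 ppm and a mean of 5187 ppm per kb, because its annotated transcript has only 102 bases. It lies on chromosome 2 at 6571 to 6672 on the plus strand, 625 bases past AT2G01020, which is annotated as a ribosomal RNA gene. It alone was 0.752% of the pool, and without it the uncharacterised genes held 3.997% in place of 4.72%. Replicate 2 was lowest for it. Its annotated sequence is shown whole because it is one of the highest levels and rests on so short a transcript.
AT2G01021 (TAIR10.1, chr2:6571-6672, plus strand): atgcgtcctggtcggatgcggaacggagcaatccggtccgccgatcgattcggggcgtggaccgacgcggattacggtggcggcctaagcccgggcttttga

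The leading pair of each other large process was lower. THI1, of thiamine synthesis, had 2045, 2156 and 2066 ppm (1301 ppm per kb), and RABE1b, an elongation factor of the chloroplast ribosome, had 1775, 1745 and 1724 ppm (994 ppm per kb). Among ribosomal proteins, SSR16 had 507, 529 and 527 ppm (741 ppm per kb) and RPL12-A had 680.2, 683 and 674 ppm (695 ppm per kb). The highest of 393 ribosomal protein genes was therefore far below LHCB1.3 per kb. MT2B and MT3, metallothioneins that bind metal ions, had means of 1349 and 1157 ppm per kb. AT1G51402, annotated as an uncharacterised protein, had 595, 586 and 566 ppm and a mean of 1162 ppm per kb.

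Among genes whose annotation text named a transcription factor family, COL4 was highest, at 415, 417 and 409 ppm (380 ppm per kb). COL4, STO, COL3, BBX15 and COL5 carry B-box zinc fingers, a class known for roles in light signalling and flowering time. STO had 214 ppm per kb, COL3 had 138, BBX15 had 132 and COL5 had 114 ppm per kb. GLK2, an activator of nuclear photosynthesis genes, had 222, 226 and 226 ppm (141 ppm per kb). The auxin response was represented by the repressors IAA8 and IAA16, at 136 and 82.0 ppm per kb, and by ARF2, an auxin response factor, at 88.4 ppm per kb. HB6 of the HD-Zip class had 88.1 ppm per kb and bZIP2 79.7 ppm per kb. PIL6, also called PIF5 and mutated in the pif4 pif5 pif7 line, had 192, 196 and 191 ppm (84.5 ppm per kb) in Col-0. The 3 Col-0 values of PIL6 lay within a narrow range. Regulators such as ANT, WUS, LFY and APL carry other annotation text and were not among the 1028.

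Markers of epidermis and vascular tissue were the highest, those of the apex were low, and most markers of root, flower, pollen and seed were near 0. All 6 epidermis and cuticle markers had at least 10 ppm, with a summed level of 1384 to 1429.5 ppm, led by LTP1 at 651 ppm. The 7 vascular markers summed to 499.8 to 517 ppm, and 6 of them had at least 10 ppm. By ppm they were led by the proton pump gene AHA3 at 231 ppm and the phloem sucrose transporter gene SUC2 at 154 ppm. Per kb of transcript SUC2 was higher, at 75.1 ppm per kb against 69.1 for AHA3. The 6 stomatal and trichome markers all had at least 1 ppm and 3 had at least 10 ppm. Of 7 apex and meristem markers 4 had at least 1 ppm, with ANT at 33.0 ppm and KNAT1 at 10.4 ppm, while STM had 4.74 ppm, WUS was at 0 and CLV3 at 0.0208 ppm.

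Among 14 root markers, 6 were at 0 and 2 reached 1 ppm. PYK10, a beta-glucosidase of endoplasmic reticulum bodies known from roots and hypocotyls, had 348, 269 and 307 ppm in replicates 1, 2 and 3. The other root marker above 1 ppm, the iron reductase gene FRO2, had 1.92 ppm, and the list summed to 272 to 350.2 ppm, nearly all of it PYK10. None of 7 flower markers reached 1 ppm, with SEP3 highest at 0.700 ppm and a sum of 1.62 to 2.00 ppm. None of the 4 pollen and 5 seed storage markers in the files reached 1 ppm either, and 3 of those 5 were at 0. LAT52, CRU2 and SESA3 were not analysed here.

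Promoters of the abundant genes were set beside those of all genes, over the 250 bases before the annotated transcript start. The G-box, CACGTG, and the I-box, GATAAG, are known from light-regulated genes, and the telo box, AAACCCTA, and site II, TGGGCC, from genes of ribosomal proteins. Each was searched on both strands, their matches were counted separately, and a promoter could hold several. The G-box was in 16.7% of 120 light-reaction promoters and in 6.94% of all 24746, and the I-box in 24.2% and 12.3%. In carbon fixation each of these was in 4 of 36 promoters, or 11.1%. Site II was in 45.5% of 393 promoters of ribosomal protein genes and in 14.7% of all, and the telo box in 16.0% and 4.40%. The motifs were not confined to these classes. In light reactions site II was in 20.8% and the telo box in 3.33%, and in carbon fixation in 19.4% and 2.78%. Of the ribosomal protein promoters, 14.0% held an I-box and 3.05% a G-box. Among the 11644 promoters of genes with a mean of at least 10 ppm, site II was in 19.3%, the telo box in 3.88%, the I-box in 12.9% and the G-box in 7.78%. Of the 100 most abundant genes, 17 held a G-box, 24 an I-box, 13 site II and 4 a telo box. These are counts of letters in a window, with no test. The 2 promoters below belong to the most abundant gene of the light reactions that held both of its motifs, and of the ribosomal proteins that held both of theirs, with the motifs in capitals. LHCB6, an antenna gene with a mean of 2816 ppm per kb, has its G-box 124 bases and its I-box 86 bases before the start. AT4G27090, annotated as ribosomal protein L14 with a mean of 519.7 ppm per kb, has site II 94 and 62 bases, the second on the other strand as GGCCCA, and the telo box 49 bases before the start. Both are from RefSeq on TAIR10.1, read 5′ to 3′ on the gene's strand.
LHCB6 promoter (chr1:5447881-5448130, minus strand): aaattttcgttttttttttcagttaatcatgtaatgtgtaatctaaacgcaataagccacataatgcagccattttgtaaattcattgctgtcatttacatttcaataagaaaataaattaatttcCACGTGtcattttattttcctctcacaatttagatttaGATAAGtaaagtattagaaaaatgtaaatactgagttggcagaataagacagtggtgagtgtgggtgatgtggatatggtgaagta
AT4G27090 promoter (chr4:13595253-13595502, minus strand): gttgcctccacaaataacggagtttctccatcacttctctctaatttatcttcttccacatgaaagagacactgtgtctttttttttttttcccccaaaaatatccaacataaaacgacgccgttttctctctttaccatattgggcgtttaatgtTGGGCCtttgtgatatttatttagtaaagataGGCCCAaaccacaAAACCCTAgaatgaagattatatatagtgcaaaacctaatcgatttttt

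Families differed in how far a single member carried the total. For 45 families with 187 members, the share of the leading member in the family's summed ppm per kb was taken in each library. In 14 families it was at least 75% on the mean, with the same member first in all 3 libraries. In 17 it was under 50%, and in 14 it lay in between. The same member came first in all 3 Col-0 libraries in 44 of 45 families. The exception was the family of glyceraldehyde-3-phosphate dehydrogenase of the Calvin cycle, where GAPA-2 held 34.7% and GAPA 34.0%.

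**Figure D3:**
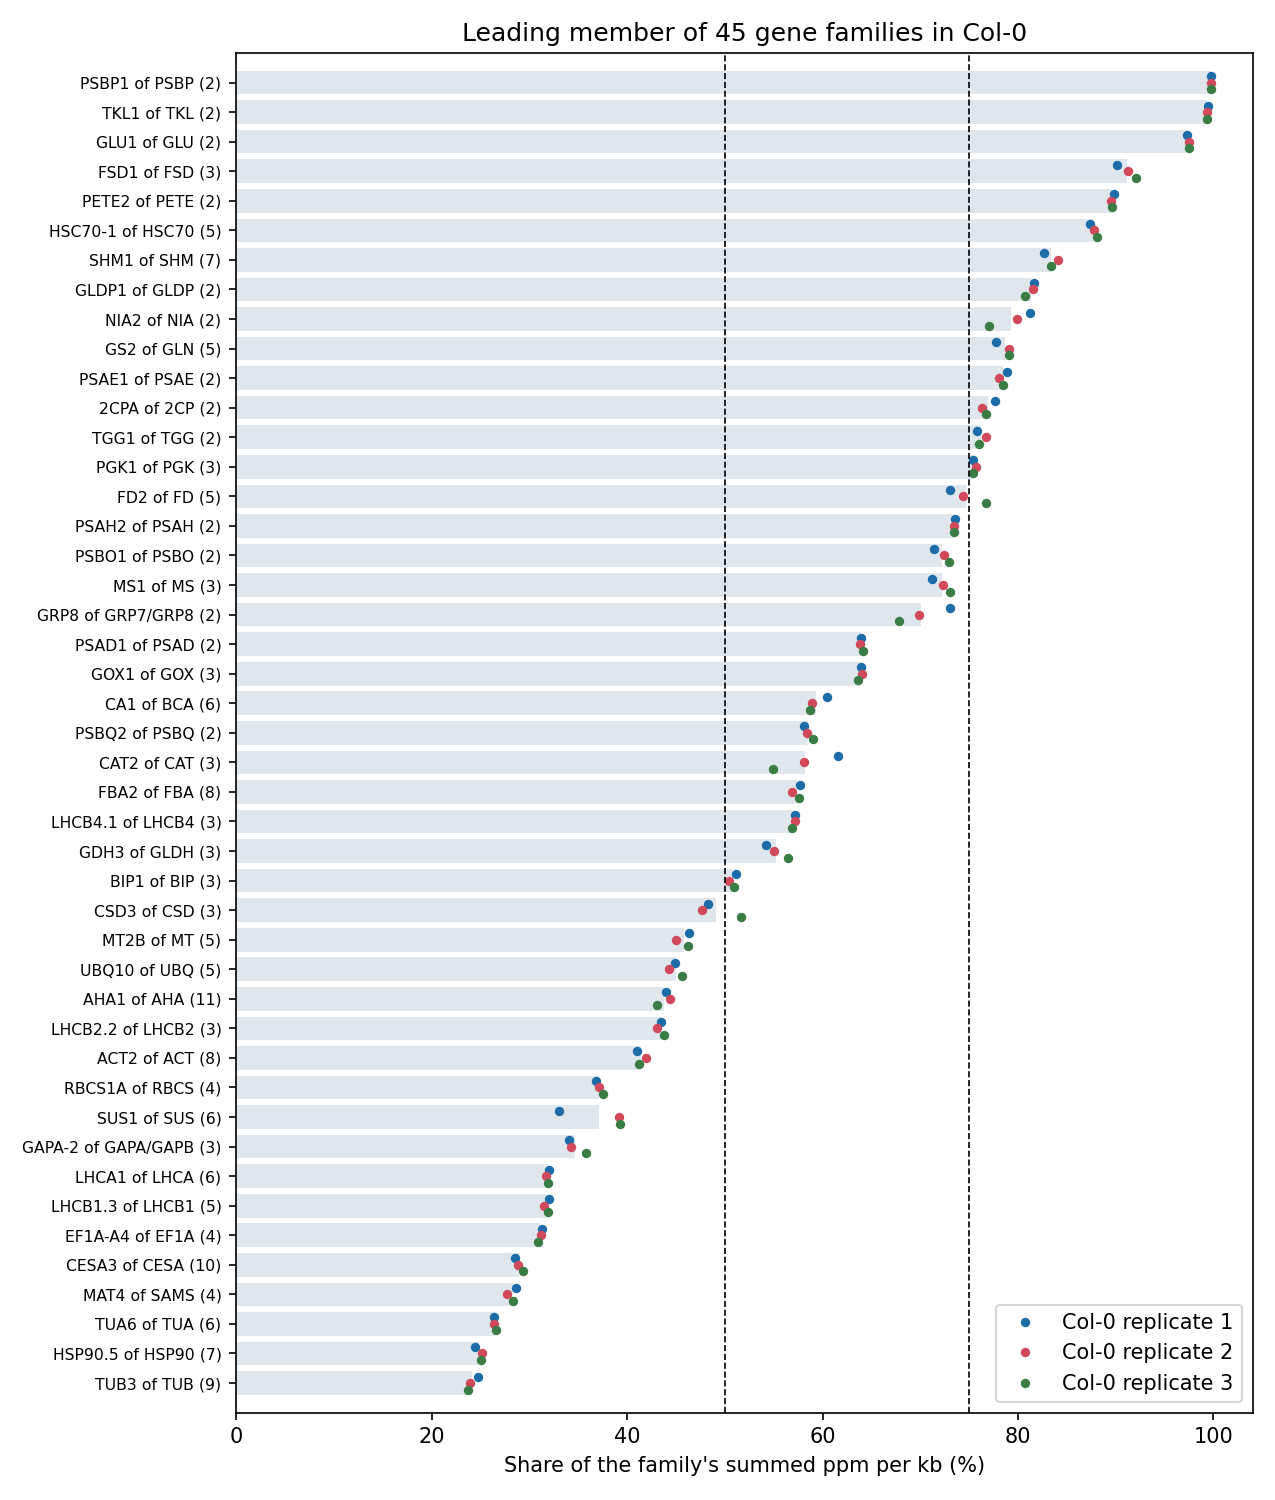
Share of each family's summed ppm per kb held by its leading member (%, horizontal axis) in 45 families, with the number of members in brackets, a bar for the mean, 1 point per Col-0 library and dashed lines at 50% and 75%. Points of a family lie close together, and the leading shares run between 99.8% for PSBP1 and 24.1% for TUB3.

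PSBP1 held 99.8%, 99.7% and 99.8% of its pair in replicates 1, 2 and 3, at 4366, 4595 and 4594 ppm, where PSBP2 had 7.78, 8.91 and 7.18 ppm. The transketolase gene TKL1, of the Calvin cycle, held 99.4%, 99.4% and 99.3%. Its partner TKL2 had 11.6, 13.8 and 14.3 ppm. The ferredoxin-dependent glutamate synthase gene GLU1 held 97.3%, 97.5% and 97.5%. In these 3 families the second gene was far lower in every library. FSD1, an iron superoxide dismutase gene, held 91.2% ± 1.01, the plastocyanin gene PETE2 89.7% ± 0.188 and the chaperone gene HSC70-1 87.7% ± 0.365. In photorespiration SHM1, a serine hydroxymethyltransferase gene, held 83.4% ± 0.729 of 7 members and GLDP1, of glycine decarboxylase, 81.4% ± 0.497 (SD, n = 3 each). The glutamine synthetase gene of the chloroplast, GS2, held 78.6% ± 0.752, and PSAE1, of photosystem I, 78.4% ± 0.404. 2CPA, a peroxiredoxin gene, held 76.9% ± 0.665, TGG1, a myrosinase gene, 76.2% ± 0.492, and PGK1, a phosphoglycerate kinase gene, 75.5% ± 0.172.

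The nitrate reductase gene NIA2 held 81.2%, 79.9% and 77.1% of its pair, a mean of 79.2% ± 2.13, with 616, 654 and 722 ppm where NIA1 had 140.2, 162 and 212 ppm. NIA1 was among the genes with a ratio of at least 1.5 between libraries. Just under the threshold were the ferredoxin gene FD2, at 74.7% ± 1.83 with 73.1%, 74.4% and 76.7%, and PSAH2 at 73.5% ± 0.0672. On the ppm scale FD2 passed it at 77.7% and 2CPA did not at 74.6%, and per kb of coding sequence PGK1 did not at 73.6%. Dominance was found in 3 of 3 families of nitrogen assimilation, 3 of 12 of light reactions, 2 of 6 of carbon fixation, 2 of 5 of photorespiration, 3 of 5 of stress and metal handling and 1 of 6 of protein synthesis and folding. It was found in 0 of 3 cytoskeleton families and 0 of 5 of methyl donor and wall metabolism.

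The families without a majority member included the most abundant ones. RBCS1A held 36.8%, 37.1% and 37.5% of the small subunit family, with RBCS2B at 25.99%, RBCS3B at 25.2% and RBCS1B at 11.6%. LHCB1.3 held 32.0%, 31.5% and 31.9% of the LHCB1 family, whose other members had 21.1%, 20.7%, 18.7% and 7.70%. These shares hardly moved between the libraries, although the levels of the LHCB1 genes did. LHCB2.2 held 43.4% of its family and LHCA1 31.9%. Among structural and housekeeping genes, ACT2 held 41.4%, TUA6 26.5% and TUB3 24.1% of the actin, alpha-tubulin and beta-tubulin families. UBQ10 held 44.96% of the polyubiquitin genes (56.9% on the ppm scale), EF1A-A4 31.1% of the elongation factor genes and HSP90.5 24.9% of the HSP90 chaperone genes. CESA3, of cellulose synthase, held 28.9%, the proton pump gene AHA1 43.8%, the sucrose synthase gene SUS1 37.1% and MAT4, of S-adenosylmethionine synthesis, 28.2%. CSD3, a copper/zinc superoxide dismutase gene, held 49.1% and MT2B 45.8%.

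Close copies limit how firmly such shares can be read, since a short read from a shared stretch can be placed in either gene or counted in both. Which was done is not stated in the labels, and with 1 transcript per locus the ppm still summed to 1065230, 1064890 and 1065350 in replicates 1, 2 and 3, above the total of a parts-per-million scale. Of 24747 loci, 21293 shared no 50-base window with another locus. RBCS2B shared 21.4% of its windows with other loci, RBCS3B 18.3%, RBCS1B 14.0% and RBCS1A 1.48%. The LHCB1 genes shared 10.6% to 20.5%, LHCB2.2 28.2%, EF1A-A1 66.2%, EF1A-A3 63.1%, EF1A-A2 44.9% and EF1A-A4 7.48%. In contrast, none of the 14 dominant members shared more than 0.326%. MT1A, whose transcript has 138 bases, shared 100%. Windows were shared by up to 35.4% in the alpha-tubulin family (TUA5), 22.3% in the beta-tubulin family (TUB2), 23.9% among HSP90 genes (HSP90.3), 25.3% among BIP genes (BIP2) and 14.1% among polyubiquitin genes (UBQ11). Levels and shares within these families and within RBCS, LHCB1, LHCB2 and EF1A are therefore uncertain. Genes of LHCB1 and RBCS also lead the pool, so the shares of the most abundant genes, light reactions and carbon fixation carry this uncertainty too.

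The coding sequences show how close these copies are. RBCS1B and RBCS2B differ at 15 of 546 coding bases and are 97.3% identical, and RBCS1B and RBCS3B are 96.7% identical. LHCB1.1 and LHCB1.3 are 96.1% identical over 804 coding bases, and EF1A-A1 and EF1A-A3 are 99.6% identical. The stretches below, of 60 bases each, are from the parts with the most differences and show, with the positions that differ between the 3 genes in capitals, how few bases tell such genes apart. For RBCS they are coding bases 91 to 150, with 8 of the 25 differing positions of the coding sequence, read 5′ to 3′ from RefSeq on TAIR10.1. The genes lie on the minus strand of chromosome 5.
RBCS1B (chr5:15383167-15385320): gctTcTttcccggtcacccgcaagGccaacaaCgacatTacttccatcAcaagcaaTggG
RBCS2B (chr5:15380907-15382071): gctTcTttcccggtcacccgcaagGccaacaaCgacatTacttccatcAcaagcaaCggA
RBCS3B (chr5:15376988-15378642): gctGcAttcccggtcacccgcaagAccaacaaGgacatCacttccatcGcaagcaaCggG
For LHCB1 they are coding bases 25 to 84, with 8 of 47 differing positions. These genes lie on chromosome 1, LHCB1.3 on the plus strand and the other two on the minus strand.
LHCB1.1 (chr1:10474656-10475969): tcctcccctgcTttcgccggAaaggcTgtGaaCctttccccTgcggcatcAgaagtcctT
LHCB1.2 (chr1:10472280-10473502): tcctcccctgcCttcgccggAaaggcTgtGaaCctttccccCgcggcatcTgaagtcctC
LHCB1.3 (chr1:10477885-10479114): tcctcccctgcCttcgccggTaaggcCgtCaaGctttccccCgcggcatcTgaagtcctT

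In the other genotypes the same member led in 45 families in sob3-6, 42 in SOB3-D and 45 in pif4 pif5 pif7. The 14 dominant members of Col-0 came first in all 3. The 3 exceptions were all in SOB3-D. CAT3 led the catalases, which break down hydrogen peroxide, in SOB3-D at 55.4%, and CAT2 led in Col-0 at 58.2%. CESA1 led cellulose synthase in SOB3-D at 29.3%, and CESA3 led in Col-0 at 28.9%. HSP90.3, which shares windows with other loci, led its family in SOB3-D at 23.7%, and HSP90.5 led in Col-0 at 24.9%. The differences were not tested.

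Spread between the 3 Col-0 libraries was small for most genes. Over the 11771 loci with a mean of at least 10 ppm, the highest library exceeded the lowest by a median factor of 1.096, and 95% of loci stayed under 1.27. For genes of 10 to 30 ppm the median coefficient of variation was 6.05%, where counting error alone gives 6.06%. It was 4.08% against 3.65% at 30 to 100 ppm and 3.41% against 2.09% at 100 to 300 ppm. Between 300 and 1000 ppm it was 3.19%, where counting gives 1.21%. For the 101 genes of at least 1000 ppm it was 3.61%, where counting gives 0.581%, so the SD was 6.47 times that of counting. The counting values are the SD of counting error, and the median of an SD taken over 3 libraries lies below that SD. Counting error was thus close in size to the median spread of low genes and small beside that of the most abundant. How much of the spread of low genes it made up was not tested.

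**Figure D4:**
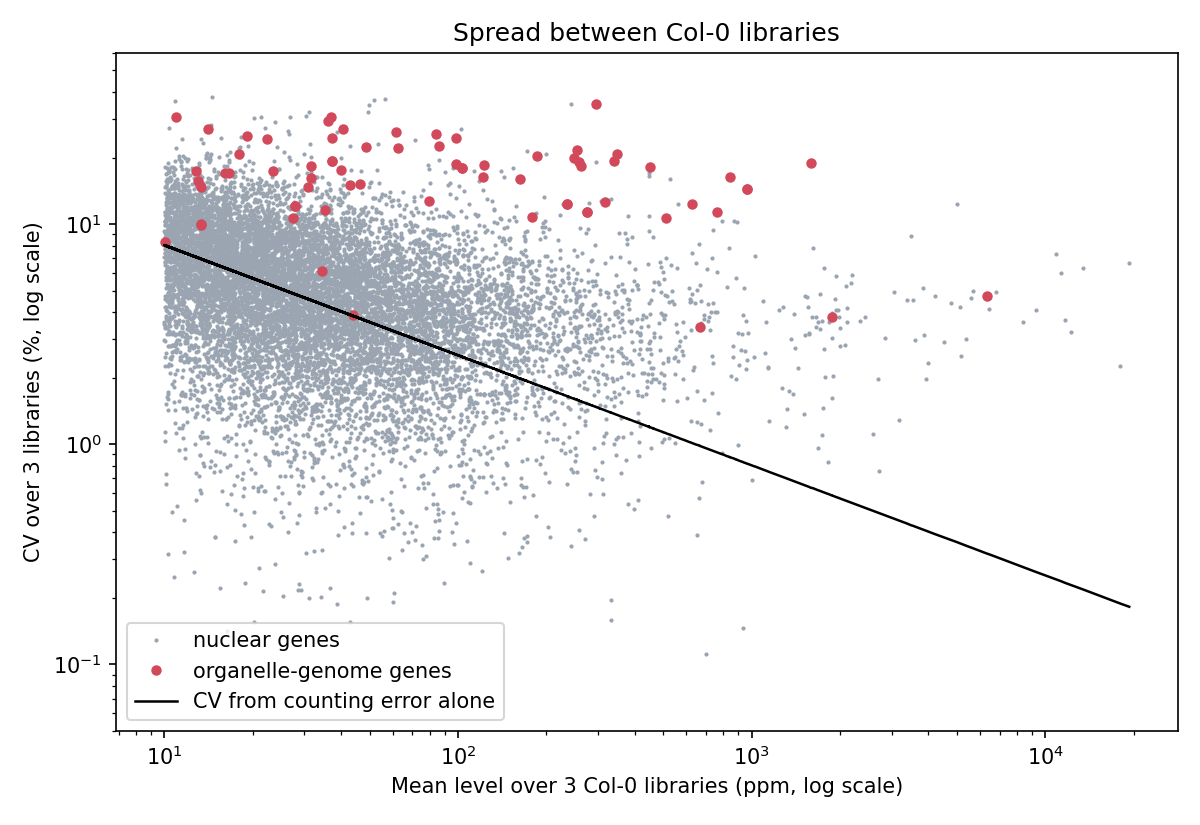
Coefficient of variation over the 3 Col-0 libraries (%, vertical axis, log scale) against mean level (ppm, horizontal axis, log scale), with 1 point per gene of at least 10 ppm, organelle genes as larger points, and the line that counting error alone gives. The points follow the line at low levels and lie above it at high levels, where the median is 3.61% for genes of at least 1000 ppm, and the organelle genes lie high.

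A ratio of at least 2 between the highest and the lowest library was reached by 6 of 11771 genes, or 0.051%, and a ratio of at least 1.5 by 60, or 0.51%. All 6 were lowest in replicate 2, and no gene reached 2 without that library. AT5G03710, annotated as a replication factor C subunit, had 67.6, 32.4 and 69.3 ppm, and AT4G06597 had 62.3, 30.05 and 63.5 ppm. AT1G47300, of the F-box family, had 17.6, 8.17 and 17.7 ppm, and FAF1, a gene of the FAF family known from the shoot meristem, had 12.8, 6.36 and 13.6 ppm. In these 4 genes replicates 1 and 3 nearly coincided, at more than 2 times replicate 2. The chloroplast transcript ATCG00020 had 381, 179.9 and 324 ppm, and AT2G07688 had 63.0, 30.1 and 56.0 ppm.

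Those 4 genes carry a common stretch of sequence, a run of the bases AGA repeated every 3 bases. They shared 3 distinct 50-base windows, all within that repeat. Of all loci, 7 hold such a window, and 5 of these had at least 10 ppm. The windows were found through the 4 genes chosen for their spread, so their own low value in replicate 2 is no support. The fifth was AT2G34840, at 20.03, 13.5 and 20.98 ppm, and the 2 below 10 ppm were AT1G80890, at 7.53, 5.11 and 5.52 ppm, and AT4G11385, at 6.22, 2.74 and 6.42 ppm. These 3 loci, too, were lowest in replicate 2, though AT1G80890 only narrowly, at 5.11 ppm against 5.52 ppm in replicate 3. They hold the same windows as the 4 genes, so the same reads may be counted in several of these loci. Their low values in replicate 2 are therefore no independent support. The repeat runs for 186 bases in AT5G03710, 179 in AT4G06597, 86 in AT1G47300, 80 in AT2G34840 and 77 in FAF1. In the other genotypes the ratios of the 4 genes lay close to each other within a genotype, and their size differed between genotypes. In SOB3-D the highest library exceeded the lowest by a factor of 2.14 for AT1G47300, 2.39 for FAF1, 2.29 for AT5G03710 and 2.33 for AT4G06597. The factors were 1.53 to 1.72 in sob3-6 and 1.41 to 1.43 in pif4 pif5 pif7. How far reads from this repeat made up their levels was not tested, since reads are not part of these data. The repeat is shown in the coding sequence of AT1G47300, transcript bases 725 to 810 in capitals with 20 bases on each side, read 5′ to 3′ from RefSeq on TAIR10.1.
AT1G47300 (chr1:17339561-17340972, minus strand): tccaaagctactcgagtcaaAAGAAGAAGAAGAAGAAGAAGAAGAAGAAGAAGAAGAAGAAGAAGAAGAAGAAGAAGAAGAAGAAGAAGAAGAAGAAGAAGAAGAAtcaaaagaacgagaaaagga

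Genes of the organelle genomes formed the other group. Of the 60 genes with a ratio of at least 1.5, 14 were among the 64 tested of the chloroplast genome (21.9%), 2 among 6 of the mitochondrial genome, and 44 among 11701 of the nuclear genome (0.376%). Of the 16 organelle genes, 15 were highest in replicate 1 and 15 lowest in replicate 2. Over all 64 chloroplast genes, 61 were highest in replicate 1. These genes are not independent observations, since some identifiers, such as ATCG00830 and ATCG01310, had identical values. Organelle genes together took 2.28%, 1.88% and 1.92% of the summed ppm in replicates 1, 2 and 3, so the total was itself highest in replicate 1. The median ratio was 1.35 for organelle genes and 1.095 for nuclear genes. Of the nuclear loci, 2 with a ratio of at least 1.5 matched organelle sequence. AT2G07688 had 100% of its 50-base windows in the mitochondrial genome and 17.4% in the chloroplast genome, and AT2G07732, at 88.3, 53.9 and 71.6 ppm, had 85.5% and 20.1%. The other 42 of 44 nuclear genes had none. ATCG00020 and AT2G07688 varied together elsewhere too. In SOB3-D they had 57.5, 358 and 63.5 ppm and 9.56, 60.3 and 10.3 ppm, and in pif4 pif5 pif7 they had 172, 78.0 and 45.04 ppm and 30.8, 14.7 and 8.33 ppm. AT2G07688 has windows in the chloroplast genome, so the same reads may be counted in both. Their values may therefore not be independent, and whether they share reads was not tested.

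In the other 14 of the 20 genes with the widest spread, replicate 1 was either the highest or the lowest library. That place is common, since replicate 1 was highest in 2746 and lowest in 2092 of 6901 other annotated genes of at least 10 ppm. AT3G56360, annotated as uncharacterised, had 31.2, 61.1 and 56.3 ppm, and FER1, for the iron store ferritin, had 340.3, 178 and 211 ppm. AT3G62550 had 14.7, 21.8 and 27.8 ppm and AT3G56880, with a VQ motif, had 13.7, 25.9 and 21.1 ppm. HSPRO2 had 23.1, 42.5 and 28.0 ppm, and DGAT3, of oil synthesis, had 71.0, 124 and 111 ppm. FER1 was thus highest in replicate 1, where AT3G56360, AT3G62550, AT3G56880, HSPRO2 and DGAT3 were lowest. MEE14 had 16.4, 24.7 and 30.2 ppm, AT2G15960 had 15.3, 23.9 and 26.99 ppm, DR4 had 18.4, 10.3 and 14.6 ppm and the myrosinase-binding protein gene MBP2 had 13.4, 9.91 and 7.80 ppm. The organelle transcripts ATCG01050, ATMG00280 and ATMG00090 completed the 20 with the widest spread. ATCG01050 had 14.2, 7.54 and 11.04 ppm, ATMG00280 had 51.2, 29.3 and 41.0 ppm and ATMG00090 had 17.9, 10.3 and 13.9 ppm. All 3 were highest in replicate 1 and lowest in replicate 2.

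LDOX, a gene of anthocyanin synthesis, was among the 20 with 35.6, 25.6 and 19.3 ppm. DFR, at 41.1, 24.2 and 25.7 ppm, and AT4G14090, an anthocyanidin glucosyltransferase gene at 20.5, 16.1 and 13.5 ppm, belong to the same pathway and were named after their values were seen. All 3 were highest in replicate 1. Over the 44 nuclear genes with a ratio of at least 1.5, replicate 3 was highest in 21 and replicate 1 was lowest in 22. Beside this, of 6901 other annotated genes of at least 10 ppm, replicate 3 was highest in 2210 and replicate 1 lowest in 2092. The difference from that background was not tested.

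**Figure D5:**
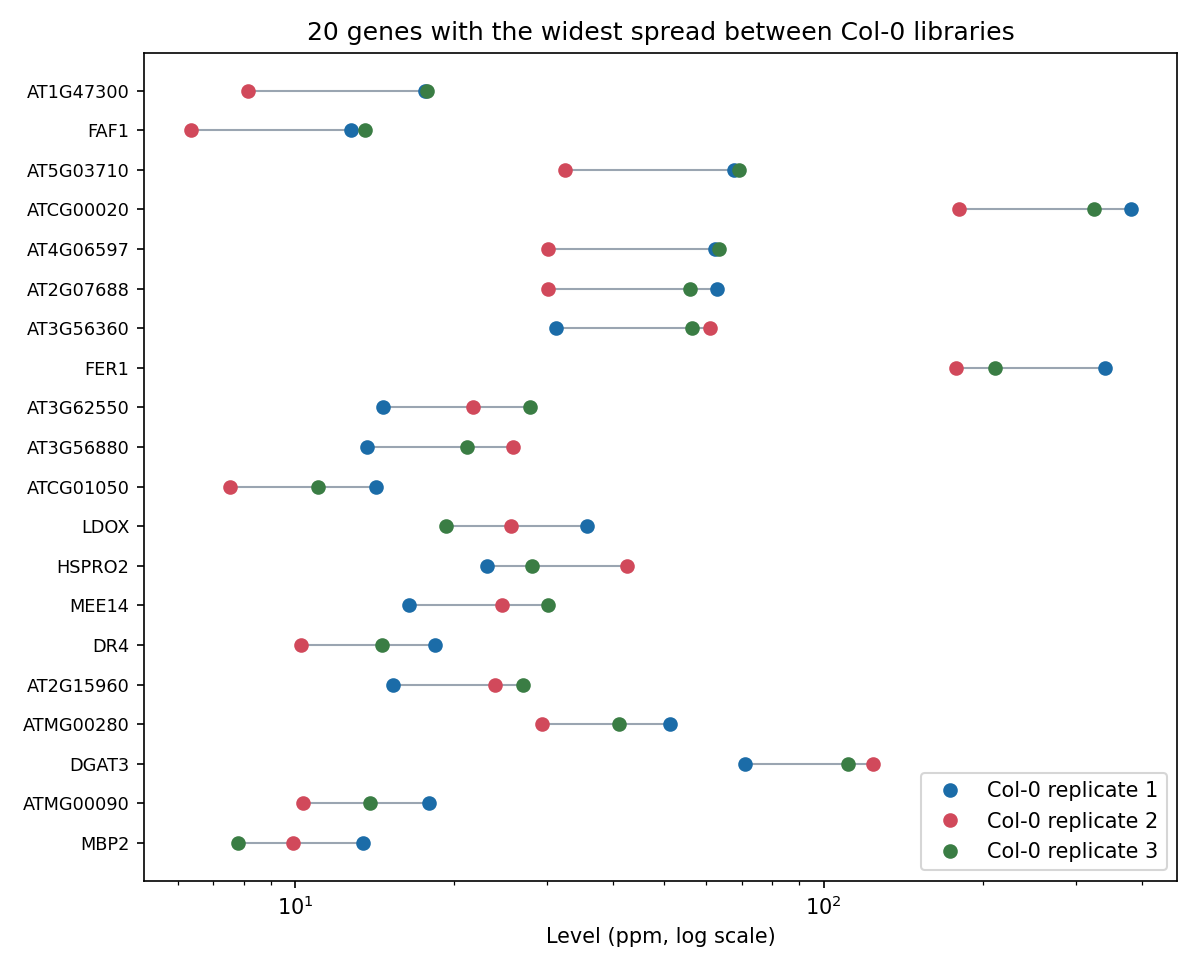
Level (ppm, horizontal axis, log scale) in each of the 3 Col-0 libraries for the 20 genes with the widest spread, 1 point per library joined by a line over the range. Replicate 2 lies apart from the other libraries, on the low side, in AT1G47300, FAF1, AT5G03710 and AT4G06597, while FER1 lies at 178 to 340.3 ppm with replicate 1 on the high side.

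At the other end, the steadiest genes of at least 100 ppm varied by less than counting error predicts. ROC4, a cyclophilin gene, had 699, 699.7 and 698 ppm, a coefficient of variation of 0.111%. The water channel gene PIP1B had 935, 932.03 and 934 ppm, and ARF2 had 333, 333 and 332 ppm. ALB1, BPS1, PEX14, AT1G76010, EMB1467, CFM2 and HTB4 completed the 10. ALB1 is known for chlorophyll synthesis, PEX14 for import into peroxisomes and HTB4 is a histone H2B gene. All 10 had an SD below that of counting, so the data do not separate them from each other. They were picked as the lowest coefficients of variation among 1663 loci of at least 100 ppm. SDs this low can come from that choice alone and do not show that these genes are steadier than others.

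The same rule was applied to the other genotypes, and the differences between genotypes were not tested. A ratio of at least 2 was reached by 10 of 12033 genes in sob3-6 (0.0831%), 19 of 11802 in SOB3-D (0.161%) and 26 of 11605 in pif4 pif5 pif7 (0.224%). A ratio of at least 1.5 was reached by 61 (0.507%), 137 (1.16%) and 107 (0.922%) genes. Reads per library were fewest in SOB3-D, at 7637822 to 8877404, so counting error was largest there. Of the sob3-6 genes 16 were also among the 60 of Col-0, which is 26.2% of the sob3-6 list and 26.7% of the Col-0 list. For SOB3-D it was 21 genes, or 15.3% and 35% of the lists, and for pif4 pif5 pif7 31 genes, or 29.0% and 51.7%.

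The pool of Col-0 was set against the other genotypes in 4 shares, with 12 comparisons and the exact two-sided permutation test, which cannot give a p below 0.1 with 3 libraries against 3. Light reactions held 25.9%, 25.4% and 26.5% in SOB3-D and 22.9%, 24.3% and 24.3% in Col-0. The SOB3-D libraries lay above all those of Col-0, by 2.13 percentage points on the mean (exact p = 0.1, Benjamini-Hochberg adjusted 0.15). In sob3-6 the share differed from Col-0 by -0.0767 points (exact p = 0.8) and in pif4 pif5 pif7 by 0.394 points (exact p = 0.7), and the libraries overlapped. Carbon fixation held 7.96% ± 0.326 in sob3-6 and 9.69% ± 0.237 in pif4 pif5 pif7, against 8.82% ± 0.284 in Col-0 (SD, n = 3 each, exact p = 0.1 for both, without overlap). In SOB3-D it held 8.37% ± 0.294 and the libraries overlapped those of Col-0 (exact p = 0.3).

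Ribosomal proteins held 7.11% ± 0.270 in SOB3-D and 8.83% ± 0.0827 in pif4 pif5 pif7, against 8.30% ± 0.221 in Col-0, and neither overlapped Col-0 (exact p = 0.1 for both). In sob3-6 they held 8.13% ± 0.244 (exact p = 0.4), which overlapped. The 100 most abundant genes of Col-0 held 35.1% ± 0.145 in sob3-6, 37.9% ± 0.178 in SOB3-D and 37.2% ± 0.284 in pif4 pif5 pif7, against 36.4% ± 0.566 in Col-0. These 100 genes were chosen by their levels in the same Col-0 libraries, so their shares are a description and no test of them is read. The adjusted p was at least 0.15 in all 12 comparisons, and they share the Col-0 libraries. With 3 libraries against 3 no such test can pass a threshold of 0.05.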

How the data were processed

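Poly(A) RNA of 12 shoot samples was sequenced with a stranded kit, per the labels' protocols. Bowtie 1.2.1, bcl2fastq and the TAIR10 genome were used, per the submitters' processing notes. The counter, read length and use of strand are not given in the sources used here, and overlapping or antisense genes may share reads. The deposited signal is in parts-per-million of mapped tags per transcript, per the labels. Values were whole multiples of 1 read in 100% of cases (tolerance 0.01 reads), which gave the depth. Summed over all transcripts they exceed the total that parts-per-million allow, and 1 transcript per locus, as used here, lowers that sum but leaves it above that total. Lengths, sequences and names came from RefSeq on TAIR10.1, which may differ from the annotation used by the authors. Lengths were found for 24747 of 25089 loci, and 133 nuclear loci without one held 0.482% of the summed ppm. Shares, ratios and exact permutation tests were computed in Python 3.11.15 with numpy 2.4.6 and pandas 2.3.3, and the scripts were tested on simulated data.

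Named genes were the 20 highest per kb and by ppm, the highest pair of each process with at least 2% of the pool, leaders of families at 75% or more or under 50%, 12 transcription factors, the 20 widest and the 10 steadiest genes. The members and lists were chosen with earlier results of these data known. Alternatives covered scale, length, thresholds, libraries left out and pairing.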

Additional observations from a re-analysis of the deposited data

How the results depend on the processing

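On ppm as deposited the shares were 17.7% for light reactions, 8.35% for carbon fixation, 5.36% for ribosomal proteins, and 11.4%, 31.4% and 57.6% for the first 10, 100 and 1000 genes. Without organelle genes on that scale, an alternative chosen after seeing the data, they were 18.1%, 8.52%, 5.47%, 11.6%, 31.4% and 57.3%. Per kb of coding sequence, also chosen then, carbon fixation was 10.4%, ribosomal proteins 9.54%, and the first 10, 100 and 1000 genes 14.9%, 37.9% and 66.3%. These settings differ from the pool per kb of transcript by construction in the length that divides each gene or in the genes that form the total. Organelle genes have no length here, so leaving them out cannot change a share per kb. Leaving out transcripts under 200 bases moved none of these 6 shares beyond their SD. Families with a dominant member numbered 14 at 75%, 21 at 60%, 4 at 90%, and 14 to 15 with a library left out. Genes with a wide spread numbered 17 at a mean of 5 ppm, 3 at 50 ppm, 60 at a ratio of 1.5, and 0 to 6 with a library left out. With 1 library left out, the light-reaction difference reversed sign, with -0.0581 to 0.625 points for pif4 pif5 pif7 minus Col-0 and -0.528 to 0.155 for sob3-6 minus Col-0, where it also was 0.144 without Col-0 replicate 3 and 0.0245 without sob3-6 replicate 2. The labels do not say that same-numbered libraries are paired. Their deviations correlated at -0.0626 to 0.226, above 0.1 in 4 of 9 pairs, all of replicates 1 and 3, and 5 of 9 mutant libraries correlated best with the Col-0 library of their number. The pairing was therefore not used, and a test with the replicate number as a block cannot give a p below 0.25. Genes with few reads are limited by counting error, at 14.5 to 16.1 reads per ppm.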
